A study of Mus musculus with 11 samples.

Results

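The growth hormone-STAT5 axis of the mouse liver was described through 10 of the 13669 genes counted: the receptor *Ghr*, the transcription factors *Stat5a* and *Stat5b*, the circulating products *Igf1* and *Igfals*, the feedback inhibitors *Socs2* and *Cish*, and the dependent enzyme genes *Hsd3b5*, *Elovl3* and *Cyp4a12a*. These genes were selected on their place in the axis and with earlier results of the same comparison of AAV-TuD and AAV-NC livers known, so the group differences given for them are a description without a test. All 10 passed the filter on low counts that left 13334 genes to test.

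The samples were livers of 11 wild-type male C57BL/6J mice kept on chow. A recombinant adeno-associated virus of serotype 8 (rAAV8) carried a control insert in 5 of them (AAV-NC) and, in the other 6, a TuD or tough decoy that binds *miR-541* and *miR-379* (AAV-TuD). A tough decoy is a hairpin RNA that holds binding sites for the miRNAs it sequesters. Transcription of both inserts was driven by the liver-specific LP1 promoter, so no other tissue was meant to carry the decoy and the controls carried the same vector. Mice arrived at an age of 6 weeks, adapted for 4 weeks and received 5e11 genome copies each. Killing followed a fast of 5 to 6 h and, over all experiments with the decoy, came 4 weeks to 3 months after the virus. Which interval applied to these 11 livers was not given in the sources used here, and the hour of killing only as a general rule for all experiments. Livers keep the numbers of their labels below, 1, 2, 6, 7 and 8 for AAV-NC and 3, 4, 5, 9, 10 and 11 for AAV-TuD.

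Growth hormone is released from the pituitary in pulses and binds its receptor on hepatocytes, which activates the kinase JAK2 and, through it, STAT5B and to a lesser degree STAT5A. Phosphorylated STAT5 enters the nucleus and drives *Igf1*, *Igfals* and the early feedback genes *Cish* and *Socs2*, whose products bind the activated receptor complex and end the signal. The pulse pattern of male mice also maintains a set of male-biased liver genes, among them *Hsd3b5*, *Elovl3*, *Cyp4a12a* and many genes of the major urinary proteins (*Mup*).

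The decoy was directed at miRNAs from the cluster on chromosome 12, and both mature sequences are shown because their seeds decide which transcripts can be matched. RefSeq places miR-379-5p at chr12:109709065-109709085 and miR-541-5p at chr12:109742422-109742446 (GRCm38.p6, plus strand). Capitals mark the seed, bases 2 to 8.
miR-379-5p: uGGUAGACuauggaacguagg
miR-541-5p: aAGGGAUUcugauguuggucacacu
The complement of the *miR-379-5p* seed, GTCTACC, occurred in the longest 3′ UTR of 626 of 10935 genes (5.72%), and that of *miR-541-5p*, AATCCCT, in 1040 (9.51%). Among the 10 genes of the axis there was 1 match, for *miR-541-5p* in *Igf1*, at bases 5664 to 5670 of a UTR of 6308 bases. The matched bases are in capitals.
Igf1 3′ UTR: aaactgctagaAATCCCTtccaaccagtg
The other 9 genes held neither heptamer in UTRs of 262 (*Igfals*) to 3638 bases (*Socs2*). A match is a string of letters and was not tested as a binding site. The study reported that the decoy also lowered the host transcripts *lncMGC* and *Mirg* and other miRNAs of the cluster. Seeds of those other miRNAs were not searched here.

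STAT5 binds the palindrome TTCNNNGAA, which reads the same on both strands, and the promoters that held it are shown because the feedback and carrier genes are direct STAT5 targets. RefSeq promoters, from 250 bases before to 50 bases after a transcript start (GRCm38.p6), were at hand for 7 of the 10 genes, as 12 promoters, and 3 of these held a match, against 8.3% of all 32851 promoters in the table. The promoter of *Cish* held 2 matches, as did 0.457% of all promoters, at positions 1 and 12 counted from the first transcribed base. It lies at chr9:107296409-107296708 on the plus strand, with matches in capitals.
Cish: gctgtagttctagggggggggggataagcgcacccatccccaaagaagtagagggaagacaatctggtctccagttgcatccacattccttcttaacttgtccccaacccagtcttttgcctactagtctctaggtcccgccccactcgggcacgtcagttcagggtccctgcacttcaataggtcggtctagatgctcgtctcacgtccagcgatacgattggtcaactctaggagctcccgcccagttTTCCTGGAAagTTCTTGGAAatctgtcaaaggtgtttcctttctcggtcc
*Igfals* had 3 promoters, of which the ones at chr17:24877594-24877893 and chr17:24877981-24878280 (plus strand) each held 1 match, at positions -236 and -58. The second is shown.
Igfals: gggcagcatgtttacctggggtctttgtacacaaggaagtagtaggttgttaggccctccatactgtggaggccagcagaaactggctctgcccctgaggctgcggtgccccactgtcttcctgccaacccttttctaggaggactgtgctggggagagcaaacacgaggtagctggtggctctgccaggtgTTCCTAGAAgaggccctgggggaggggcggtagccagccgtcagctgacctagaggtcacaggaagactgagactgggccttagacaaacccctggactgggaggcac
No match was present in the promoters of *Ghr*, *Stat5a*, *Stat5b*, *Igf1* and *Hsd3b5*, which says only that these letters are not in that window. For *Hsd3b5* the RefSeq start lies upstream of, and outside, the gene position given below, so the window searched may not be its promoter. *Socs2*, *Elovl3* and *Cyp4a12a* were the genes without an entry.

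Each library held between 8148531 and 12043959 reads on genes, from 3′-end sequencing of 500 ng RNA. Levels are CPM, reads of a gene relative to library sizes scaled by the TMM method, and differences are log2 fold changes of AAV-TuD over AAV-NC with their standard error (SE). *Mup* genes took 38.6% of the reads of AAV-NC liver 7, 30.9% and 28.4% in AAV-TuD livers 3 and 5, and 8.09% to 18.7% in the others. All 8 hepatocyte markers were detected, with a median fold change of -0.12. Their summed level of 34483 to 40757 CPM in AAV-NC and 43116 to 48965 CPM in AAV-TuD livers was mostly that of *Alb*, at means of 21096 and 28044 CPM (not called). Of all genes tested, 4.33% were lower and 7.24% higher with AAV-TuD at a Benjamini-Hochberg adjusted p below 0.05 in the quasi-likelihood test of edgeR. The values of both groups did not overlap for 3.28% of the genes in the lower and 4.11% in the higher direction.

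In the AAV-TuD livers, 1 of the 10 genes of the axis was called lower (*Hsd3b5*) and 0 were called higher. *Hsd3b5* was also the 1 gene whose groups did not overlap. The receptor, the STAT5 genes and the IGF genes differed by 0.21 or less on the log2 scale, and the feedback genes had larger differences together with a spread of up to 47.8-fold between livers of the same group. Fold changes were below 0 for 7 genes and above 0 for 3, with a median of -0.25 against -0.0024 for all genes tested. The counts of 1 and 0 are given beside the shares of all genes above and nothing is read from them, because the genes were chosen with this comparison known.

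**Figure D1:**
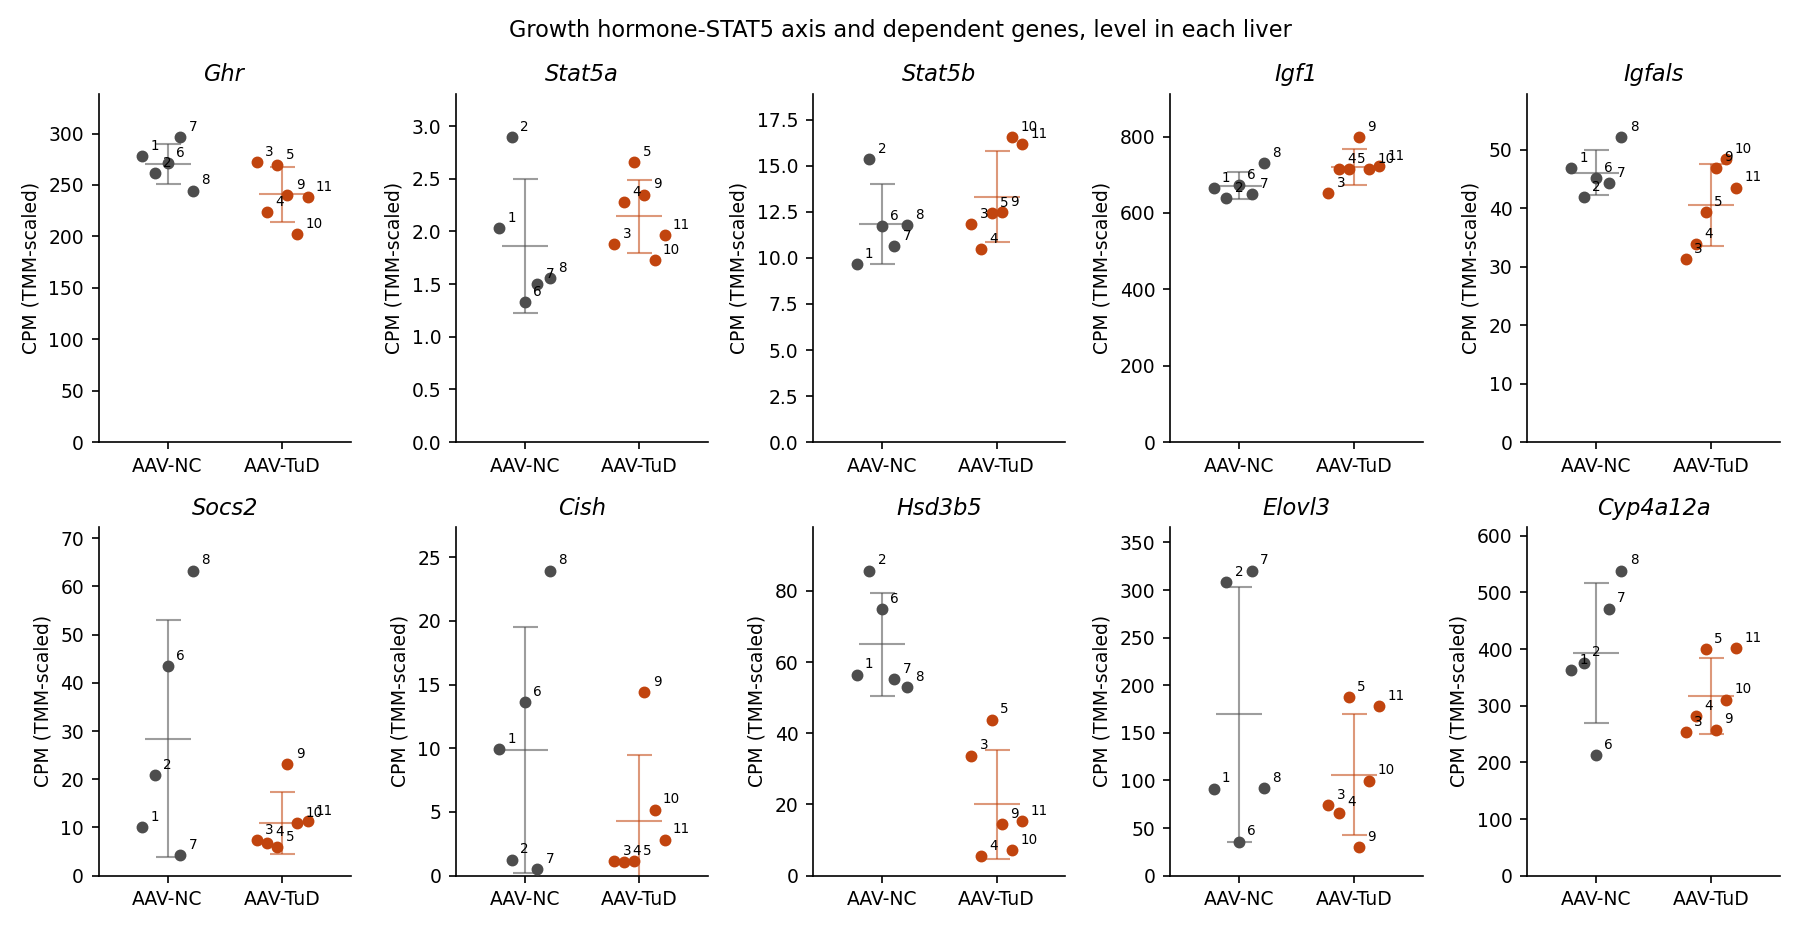
Level of each of the 10 genes in each liver, in TMM-scaled CPM on linear axes that start at 0, for AAV-NC (grey) and AAV-TuD (orange). Numbers are liver numbers and lines are mean ± SD. For Hsd3b5 the 6 AAV-TuD livers lie between 5.56 and 43.9 CPM, all below the 5 AAV-NC livers at 52.9 to 85.7 CPM, whereas the groups overlap in the other 9 panels.

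*Ghr*, the receptor at the head of the axis, had 278, 262, 271, 297 and 245 CPM in AAV-NC livers 1, 2, 6, 7 and 8. In the AAV-TuD livers its level ran from 202 to 273 CPM with a median of 239. The groups overlapped, although 4 of the 6 AAV-TuD livers lay below every AAV-NC liver. The fold change was -0.17 (SE 0.08), not called, and it was 0.06 when library size alone replaced the TMM factors. Library size alone moved the median of all genes to 0.23, so that relative to this median *Ghr* stayed below it under both scalings.

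*Stat5a* was close to the filter on low counts, with 2.03, 2.90, 1.33, 1.502 and 1.56 CPM in AAV-NC livers in the order above and 1.72 to 2.66 CPM (median 2.12) in AAV-TuD livers. *Stat5b*, the main STAT5 of hepatocytes, had 9.67, 15.4, 11.7, 10.6 and 11.8 CPM with AAV-NC, against 10.5 to 16.6 CPM (median 12.4) with AAV-TuD. Both genes overlapped between the groups, with AAV-NC liver 2 highest of its group for each. Neither was called, with fold changes of 0.21 (SE 0.23) for *Stat5a* and 0.17 (SE 0.14) for *Stat5b*. Leaving out AAV-NC liver 2 raised these to 0.41 and 0.28, while *Stat5a* was 0.11 without AAV-NC liver 6 and *Stat5b* 0.10 without AAV-TuD liver 10. These are transcript levels and carry no information on phosphorylation of the proteins.

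*Igf1*, the hormone that the liver releases under growth hormone, was the steadiest of the 10 genes, with a coefficient of variation of 5.33% in AAV-NC and 6.47% in AAV-TuD livers. It had 665, 639, 672, 649 and 731 CPM in AAV-NC livers 1, 2, 6, 7 and 8. With AAV-TuD it lay between 652 and 798 CPM with a median of 715. Only AAV-TuD liver 9 exceeded all AAV-NC livers, and the fold change was 0.10 (SE 0.07), not called, or 0.33 with library size alone. *Igf1* is also the gene with the *miR-541-5p* seed match.

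*Igfals* encodes the acid-labile subunit that holds IGF1 in its large circulating complex. Its level was 46.9, 41.9, 45.2, 44.3 and 52.2 CPM in AAV-NC livers, and 31.4 to 48.5 CPM (median 41.4) in AAV-TuD livers. AAV-TuD livers 3, 4 and 5 lay below the AAV-NC range and the other 3 within it. The fold change of -0.18 (SE 0.11) was not called. It was -0.12 without AAV-TuD liver 3 and 0.06 with library size alone.

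*Socs2*, the inhibitor whose loss gives oversized mice, varied 14.9-fold within the AAV-NC group. Its level was 10.03 CPM in liver 1, 20.9 CPM in liver 2, 43.5 CPM in liver 6, 4.26 CPM in liver 7 and 63.3 CPM in liver 8. AAV-TuD livers had 5.95 to 23.2 CPM with a median of 9.14 CPM. The AAV-TuD range lay inside the AAV-NC range, and 5 of 6 AAV-TuD livers were below the AAV-NC median of 20.9 CPM. The fold change was -1.38 (SE 0.51), not called. Single libraries moved it in both directions. It was called without AAV-NC liver 7, at -1.65, or without AAV-TuD liver 9, at -1.75, whereas without AAV-NC liver 8 it shrank to -0.84 and was not called. The limma-voom fit gave -0.86, not called.

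*Cish*, the other feedback gene, spanned the widest range, 47.8-fold among AAV-NC and 13.2-fold among AAV-TuD livers. AAV-NC livers 1, 2, 6, 7 and 8 had 9.91, 1.26, 13.6, 0.501 and 23.9 CPM, the lowest of these resting on 4 reads. The AAV-TuD livers lay between 1.09 and 14.4 CPM with a median of 1.99 CPM. High and low livers were present in both groups, AAV-NC 1, 6 and 8 and AAV-TuD 9 at the upper end, AAV-NC 2 and 7 and AAV-TuD 3, 4 and 5 at the lower end. The fold change was -1.19 (SE 0.73), not called, and it moved to -2.11 without AAV-TuD liver 9 and to -0.54 without AAV-NC liver 8. A stretch of 162 bases at the end of its transcript is identical in the locus *Gm17041*, so reads there are uncertain.

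**Figure D2:**
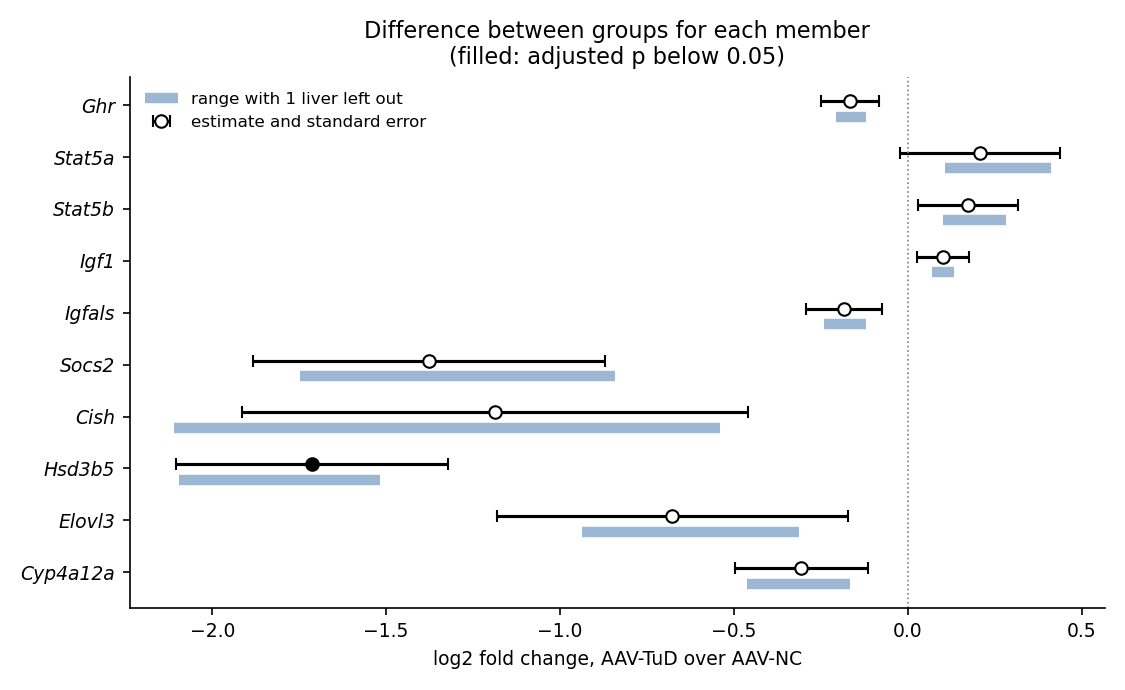
Log2 fold change of AAV-TuD (n = 6) over AAV-NC (n = 5) for each of the 10 genes, with bars for the standard error and blue bands for the range with 1 liver left out in turn. The filled point, Hsd3b5 at -1.71, is the 1 gene called; Socs2 and Cish have the next largest differences, with wide errors.

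Among the dependent enzymes, *Hsd3b5*, a male-specific liver enzyme of steroid metabolism, was lower with AAV-TuD. The gene lies on the minus strand at chr3:98618634-98630252 (GRCm38). AAV-NC livers 1, 2, 6, 7 and 8 had 56.5, 85.7, 74.8, 55.3 and 52.9 CPM, and the AAV-TuD livers had 33.7 (liver 3), 5.56 (4), 43.9 (5), 14.5 (9), 7.16 (10) and 15.4 CPM (11). Every AAV-TuD liver lay below every AAV-NC liver, and within the AAV-TuD group livers 3 and 5 stood above the other 4. AAV-NC livers had a mean of 65.1 ± 14.5 CPM (SD, n = 5) and AAV-TuD livers one of 20.03 ± 15.4 CPM (SD, n = 6), a log2 fold change of -1.71 (SE 0.39), or 3.28-fold lower. It was called in all 21 alternative settings, from -2.09 to -1.52 with each liver left out. These settings refit the same livers, so they add no independent support. An alternative chosen after seeing the data left out the 3 livers richest in *Mup* reads, AAV-NC 7 and AAV-TuD 3 and 5. AAV-TuD livers 3 and 5 had the most *Hsd3b5* of their group, so a larger fall was fixed in advance. The fold change of *Hsd3b5* was then -2.66. The last 500 bases of its transcript aligned at 86.7% to 90.0% identity with stretches of other *Hsd3b* genes and related loci, of which *Hsd3b2* and *Hsd3b3* were in the table, so reads shared with these copies are uncertain. In whole liver, fewer hepatocytes and less RNA per hepatocyte cannot be told apart for this or any other gene here.

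*Elovl3*, which elongates very long-chain fatty acids and is male-biased in mouse liver, had 91.3, 308, 35.9, 320.5 and 91.6 CPM in AAV-NC livers 1, 2, 6, 7 and 8. Its AAV-TuD levels ran from 30.04 to 187 CPM with a median of 86.7. AAV-NC livers 2 and 7 were above every other liver, and the rest of both groups mixed. The fold change was -0.68 (SE 0.51), not called, and it shrank to -0.31 without AAV-NC liver 7 and to -0.35 without AAV-NC liver 2. With library size alone it was -0.39.

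*Cyp4a12a*, a male-biased fatty acid hydroxylase, had 363, 376, 213, 472 and 539 CPM with AAV-NC and 253 to 401 CPM (median 296) with AAV-TuD. All AAV-TuD livers lay inside the AAV-NC range, and the fold change was -0.31 (SE 0.19), not called. It was -0.17 without AAV-NC liver 8, -0.46 without AAV-NC liver 6 and -0.065 with library size alone. The last 500 bases of *Cyp4a12a* are 97.8% identical to those of its neighbour *Cyp4a12b* over 496 bases, so 3′-end reads of these genes may have been assigned to either. *Cyp4a12b* had a fold change of 0.50 (SE 0.19, not called, edgeR adjusted p = 0.0995). Both genes together had 495 ± 158 CPM in AAV-NC (SD, n = 5) and 462 ± 86.6 CPM in AAV-TuD livers (SD, n = 6), closer together than *Cyp4a12a* alone.

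Livers of the same group were next compared with each other, which uses deviations from the group means and so is independent of the difference that the genes were chosen with. Pearson's r was computed over 11 livers on log2 CPM for all 55 pairs of the 10 genes and the *Mup* share, with a two-sided exact permutation test over 86400 arrangements of the livers within their groups. At an unadjusted p below 0.05 there were 12 pairs, and 0 after Benjamini-Hochberg adjustment, for r or for Spearman's rho. None of the pairs below therefore passed the correction. Of the 12 pairs 10 had the same sign in both groups and 2, both with *Hsd3b5*, did not.

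Positive values of r stood between the feedback and the IGF genes. *Cish* and *Socs2* had r = 0.81 (rho = 0.71, exact permutation p = 0.0146 for r and 0.0505 for rho, adjusted p = 0.15 and 0.281), and r = 0.61 without the 2 livers farthest from the median of *Socs2*. *Cish* and *Igf1* had r = 0.76 (rho = 0.75, exact permutation p = 0.00488 and 0.0169, adjusted p = 0.0874 and 0.281), also 0.76 without the 2 livers farthest for *Igf1*. *Cish* and *Igfals* had r = 0.68 (rho = 0.76, exact permutation p = 0.00635 and 0.00198, adjusted p = 0.0874 and 0.109), and 0.74 without the 2 livers farthest for *Igfals*. *Igf1* and *Igfals* had r = 0.75 (rho = 0.66, exact permutation p = 0.00566 and 0.0313, adjusted p = 0.0874 and 0.281), and 0.52 without the 2 livers farthest for *Igf1*. *Igf1* and *Socs2* had r = 0.64 (rho = 0.69, exact permutation p = 0.0228 and 0.0304, adjusted p = 0.15 and 0.281), and 0.67 without the 2 livers farthest for *Igf1*. The amplitude differed between these genes: from its lowest to its highest AAV-TuD liver *Cish* changed 13.2-fold, *Socs2* 3.89-fold and *Igf1* 1.22-fold. AAV-TuD liver 9 was the highest of its group for *Cish*, *Socs2* and *Igf1* and second for *Igfals*, and AAV-NC liver 8 was the highest of its group for all of these.

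**Figure D3:**
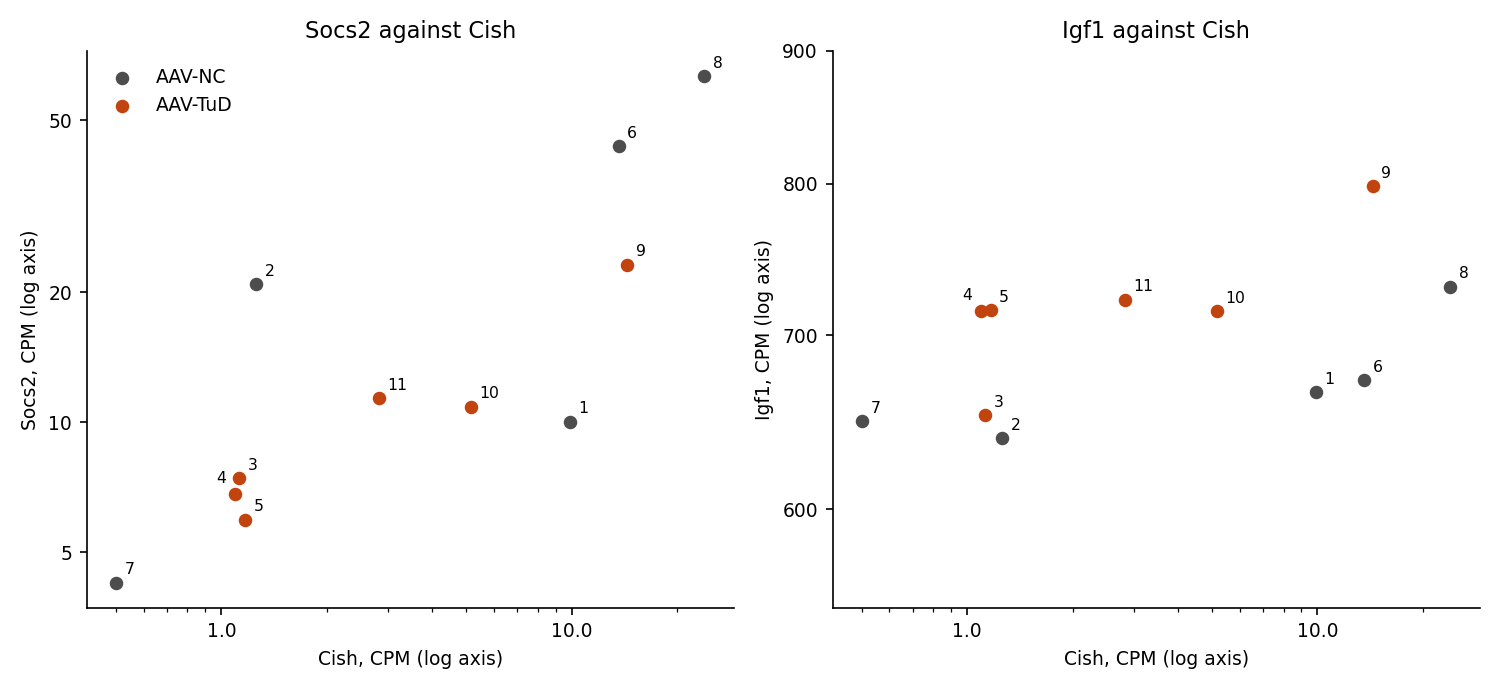
Socs2 (left) and Igf1 (right) against Cish in each liver, in TMM-scaled CPM on log axes, with liver numbers beside the points. In both groups the livers with most Cish, AAV-NC 8 and AAV-TuD 9, also have the most Socs2 and Igf1 of their group.

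Between the feedback genes and the dependent enzymes r was negative or near 0. *Cish* and *Elovl3* were inversely related, with r = -0.75 (rho = -0.81, exact permutation p = 0.0259 and 0.0184, adjusted p = 0.15 and 0.281), and -0.52 without the 2 livers farthest for *Cish*. *Cish* and *Hsd3b5* had r = -0.21 (rho = -0.11, exact permutation p = 0.493 and 0.751, adjusted p = 0.821 and 0.830). *Socs2* and *Hsd3b5* had r = -0.061 (rho = -0.055, exact permutation p = 0.809 and 0.872, adjusted p = 0.927 and 0.922). *Elovl3* and *Cyp4a12a* had r = 0.71 (rho = 0.57, exact permutation p = 0.0272 and 0.0944, adjusted p = 0.15 and 0.355), and 0.79 without the 2 livers farthest for *Elovl3*. With the other enzymes *Hsd3b5* had r = 0.21 for *Elovl3* (rho = 0.17, exact permutation p = 0.525 and 0.584, adjusted p = 0.825 and 0.813) and 0.018 for *Cyp4a12a* (rho = -0.11, exact permutation p = 0.946 and 0.759, adjusted p = 0.950 and 0.830).

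The largest r of the 55 pairs stood between *Ghr* and the *Mup* share, which come from the same libraries. It was 0.85 (rho = 0.74, exact permutation p = 0.00407 and 0.0279, adjusted p = 0.0874 and 0.281), and 0.89 without the 2 livers farthest for *Ghr*. The share is of unscaled reads, whereas *Ghr* was TMM-scaled by factors that raise CPM most in the livers richest in *Mup* reads. These factors were 0.667, 0.884 and 0.906 in AAV-NC liver 7 and AAV-TuD livers 3 and 5, and 0.958 to 1.24 in the others. No r with the share was computed without them. *Hsd3b5* and the share had r = 0.76 (rho = 0.69, exact permutation p = 0.026 and 0.0562, adjusted p = 0.15 and 0.281), and 0.60 without the 2 livers farthest for *Hsd3b5*. Within the groups r was 0.94 among the 6 AAV-TuD livers and -0.12 among the 5 AAV-NC livers. In the AAV-TuD group livers 3 and 5, the ones richest in *Mup* reads, were also highest for *Hsd3b5*, whereas AAV-NC liver 7, with the largest share of all, had a level of *Hsd3b5* between those of AAV-NC livers 1 and 8. *Ghr* and *Hsd3b5* had r = 0.76 (rho = 0.67, exact permutation p = 0.0229 and 0.0488, adjusted p = 0.15 and 0.281), and 0.62 without the 2 livers farthest for *Ghr*, but r was 0.92 among the AAV-TuD and -0.11 among the AAV-NC livers. Both pooled values of *Hsd3b5* thus rested on the AAV-TuD livers, and the difference between the groups was not tested. The feedback genes had negative values with the share, r = -0.61 for *Cish* (rho = -0.50, exact permutation p = 0.0354 and 0.0968, adjusted p = 0.162 and 0.355) and r = -0.57 for *Socs2* (rho = -0.41, exact permutation p = 0.0334 and 0.172, adjusted p = 0.162 and 0.472). Without the 2 livers farthest for each gene these were -0.34 and -0.33. The share itself was 21.2 ± 9.90% in AAV-NC (SD, n = 5) and 17.1 ± 9.98% in AAV-TuD livers (SD, n = 6), a difference of -4.11 points (two-sided exact permutation test, p = 0.515, where 462 assignments allow no p under 0.00216). Without AAV-NC liver 7 the difference was 0.24 points.

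**Figure D4:**
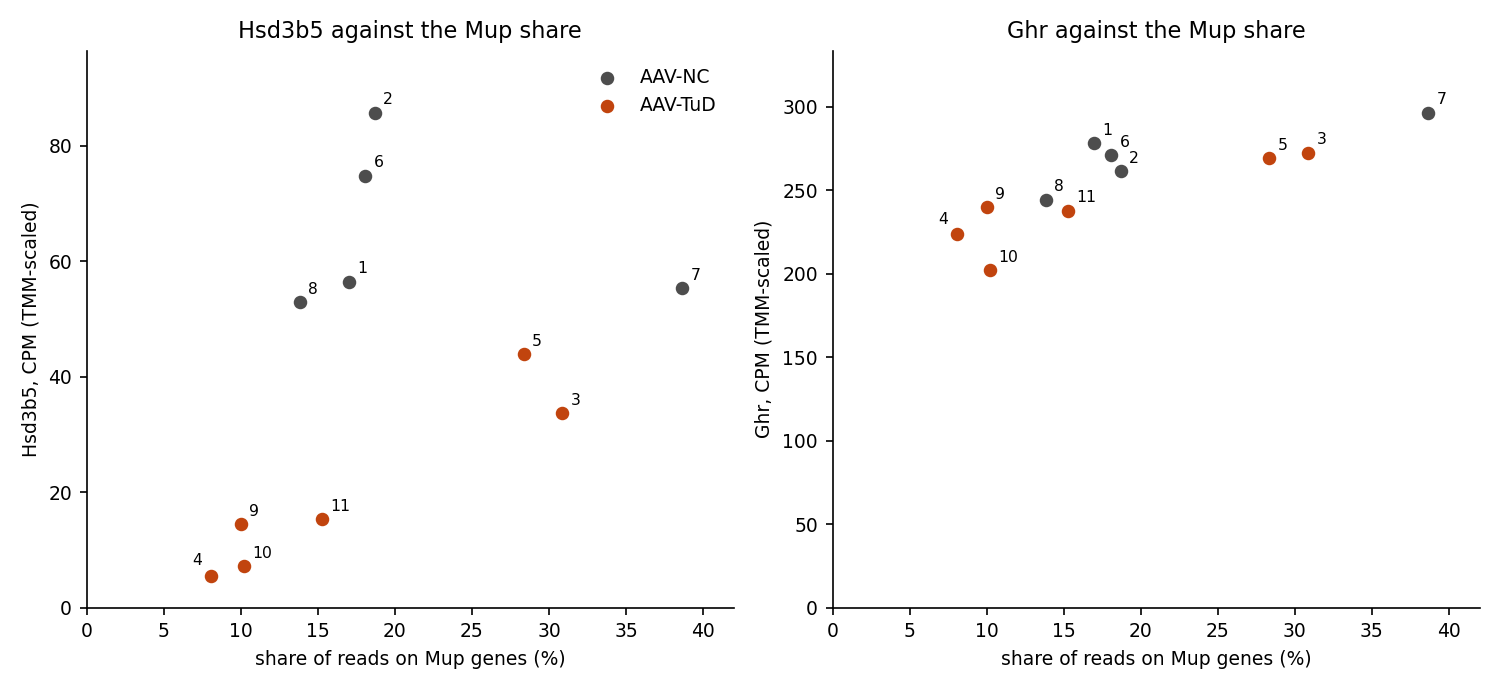
Hsd3b5 (left) and Ghr (right), in TMM-scaled CPM from 0, against the share of reads on Mup genes in each liver, with liver numbers. AAV-TuD livers 3 and 5, at 30.9% and 28.4%, have the most Hsd3b5 of their group but less than every AAV-NC liver, and Ghr is highest in AAV-NC liver 7 at 38.6%.

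The genes most like *Hsd3b5* and *Igf1* in these deviations, among 8466 genes whose mean was 50 reads or more, were *Fabp1* (r = 0.93), *Rpl12* (0.91) and *Ctif* (0.90) for *Hsd3b5*, and *Slc40a1* (0.89), *Laptm4a* (0.88) and *Mrps18c* (0.88) for *Igf1*, each over 11 livers. *Onecut1*, a liver transcription factor that growth hormone induces and that was set beside *Cish* after its values were seen, had r = 0.96 with *Cish* and 0.90 with *Socs2*. It had 26.6, 14.1, 58.8, 5.13 and 77.6 CPM in AAV-NC livers 1, 2, 6, 7 and 8, the same order as *Cish*, and 5.07 to 40.5 CPM in AAV-TuD livers with liver 9 highest. These are descriptions of the same libraries and carry no test.

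The wider pathway was read from lists of genes, with the 10 genes left out. Of 39 other genes from the receptor to the STAT proteins, 2 were lower and 2 higher, with a median fold change of -0.05. This was 5.13% in each direction, against 4.33% lower and 7.24% higher of all genes tested. The kinase gene *Jak2* was at 4.36 ± 0.563 CPM (SD, n = 5) and 4.89 ± 1.19 CPM (SD, n = 6), not called. *Src*, a kinase that the receptor can use beside JAK2, rose by 2.18 (SE 0.34, edgeR quasi-likelihood, Benjamini-Hochberg adjusted p = 0.00113), from 0.350 to 1.604 CPM. Its AAV-NC livers had 2 to 4 reads each, so it passed the filter on low counts only through the AAV-TuD livers, at 11 to 26 reads, and a gene that passes in this way had to differ. *Hnf4a*, a hepatocyte transcription factor, fell by 0.38 (SE 0.09, edgeR adjusted p = 0.015), and this call was lost with library size alone, at -0.15. *Socs4*, of the same family of inhibitors as *Socs2*, had a fold change of -0.34 (SE 0.11, edgeR adjusted p = 0.049), and its call was lost in 13 of 21 alternatives.

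Of 18 other genes listed for the IGF system, 8 were tested. Among these 2 were lower (25%, against 4.33% of all genes tested) and 0 higher, with a median of 0.03. *Igfbp2*, an IGF binding protein, had a fold change of -0.36 (SE 0.11, edgeR adjusted p = 0.0488) and *Igfbp5*, another one, of -0.56 (SE 0.17, edgeR adjusted p = 0.0466). Each call was lost in 11 of 21 alternatives, and leaving out any 1 of AAV-NC livers 1, 2, 7 and 8 or AAV-TuD livers 4, 5 and 10 left 0 genes lower.

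Male-biased genes that depend on growth hormone gave 6 lower and 1 higher of 22, with a median of -0.51. These are 27.3% and 4.55%, against 4.33% and 7.24% of all genes tested. The list holds several *Mup* genes, so its median weighs related genes more than once. It was chosen with earlier results of these data known, and nothing is read from the counts. *Cyp2u1*, a fatty acid hydroxylase, fell by 0.83 (SE 0.11, edgeR adjusted p = 4.5e-04). *Slco1a1*, an organic anion transporter, fell by 1.12 (SE 0.24, edgeR adjusted p = 0.00737) and tracked *Hsd3b5* between livers (r = 0.89 over 11 livers, chosen after its values were seen). *Ugt2b1*, a glucuronosyltransferase, fell by 0.71 (SE 0.16, edgeR adjusted p = 0.00958). *Mup21* fell by 1.004 (SE 0.27, edgeR adjusted p = 0.0257), and its call was lost without AAV-NC liver 7 or AAV-TuD liver 4, 9 or 10. *Mup20*, which encodes the male pheromone darcin, rose by 0.89 (SE 0.26, edgeR adjusted p = 0.0376), opposite to the other called genes of the list, but its call was lost in 9 of 21 alternatives. Leaving out AAV-NC liver 7 or AAV-TuD liver 4, 9 or 10 left 3 genes lower, and leaving out the 3 livers richest in *Mup* reads gave 12. Those 3 livers were chosen on their *Mup* reads after seeing the data, and *Mup* genes are in this list. The choice itself thus bears on the 12, and nothing is read from it.

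Female-biased genes gave 3 lower and 4 higher of 22, with a median of 0.29. These are 13.6% and 18.2%, against 4.33% and 7.24% of all genes tested. This list too was chosen with earlier results of these data known, and nothing is read from the counts. Higher genes were *Ntrk2*, a neurotrophin receptor (2.17, edgeR adjusted p = 0.00171), *Prom1*, a membrane glycoprotein (1.66, edgeR adjusted p = 0.00133), *Fmo2*, a monooxygenase (0.75, edgeR adjusted p = 0.0283), and *Trim24*, a transcriptional cofactor (0.39, edgeR adjusted p = 0.0331). The calls of *Fmo2* and *Trim24* were lost in 4 and 8 of 21 alternatives. *Prom1* had 4 to 11 reads in AAV-NC livers, of which 1 was past the filter, so it too entered the test through the AAV-TuD livers, at 16 to 43 reads. *Ntrk2* had 3 to 29 reads in AAV-NC livers, with 4 past the filter, so it also needed AAV-TuD livers, at 36 to 143 reads. Lower genes were the cytochromes *Cyp2c69* (-1.27, edgeR adjusted p = 8.1e-05) and *Cyp2c40* (-0.98, edgeR adjusted p = 0.00106) and *Cyp17a1*, of steroid synthesis (-1.54, edgeR adjusted p = 0.00972). Without AAV-NC liver 1 there were 8 higher genes, and without AAV-NC liver 7 or AAV-TuD liver 4 there were 2.

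Of 9 lipid genes known to rise when hepatic growth hormone signalling is lost, 5 were tested. Of these 3 were higher, against 7.24% of all genes tested, and 0 lower, with a median of 1.35. This list was chosen with earlier results of these data known, and the study had reported higher *Lpl* and *Cd36* with the decoy. Nothing is therefore read from the count. *Lpl*, which releases fatty acids from lipoproteins, rose by 2.37 (SE 0.21, edgeR adjusted p = 1.5e-05), the fatty acid transporter *Cd36* by 1.60 (SE 0.21, edgeR adjusted p = 3.4e-04) and the nuclear receptor *Pparg* by 1.35 (SE 0.29, edgeR adjusted p = 0.00883). *Pparg* had 7 to 14 reads in AAV-NC livers, with 1 of them past the filter, and 15 to 39 reads in AAV-TuD livers, through which it entered the test. All 3 genes are also expressed by cell types other than hepatocytes.

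**Figure D5:**
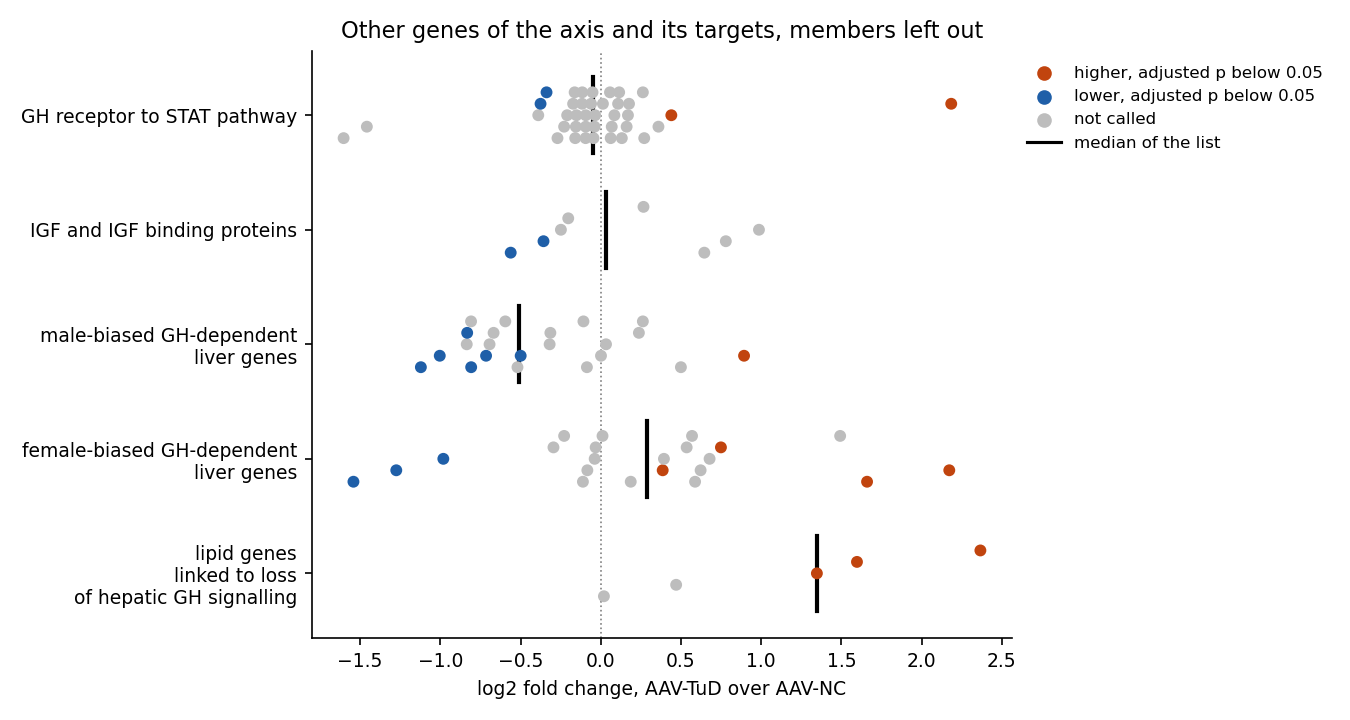
Log2 fold change of AAV-TuD over AAV-NC for the other genes of 5 lists, with the 10 genes of the axis left out; each point is a gene, blue for lower and orange for higher at an adjusted p below 0.05, and black bars are list medians. The list medians are -0.05, 0.03, -0.51, 0.29 and 1.35 from top to bottom.

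Markers of other liver cells moved with the groups beside these differences. Stellate cell markers were higher for 5 of 6 genes, against 7.24% of all genes tested. Their summed level was 166 to 230 CPM in AAV-NC and 283 to 368 CPM in AAV-TuD livers, mostly *Dcn*, at means of 150 and 259 CPM. Kupffer cell and macrophage markers were higher for 5 of 6, at 69.4 to 112 and 83.7 to 247 CPM. Cholangiocyte markers were higher for 5 of 5 tested, at 85.9 to 123 and 152 to 190 CPM. This sum was mostly *Cdh1*, at means of 81.1 and 106 CPM, whereas *Krt19* had 0.80 and 2.15 CPM and *Epcam* 0.66 and 2.60 CPM. Both *Epcam* and *Krt19* entered the test through the AAV-TuD livers. The stellate marker *Pdgfrb* and the macrophage marker *Cd68* had 3 and 4 AAV-NC livers past the filter, so they too needed AAV-TuD livers. Sinusoidal endothelial markers were called for 0 of 6, at 220 to 242 and 225 to 241 CPM. Of 6 markers listed for lymphocytes 1 was in the table and higher, *Ptprc*, which all leukocytes carry, macrophages included, so it does not single out lymphocytes. Of 8 hepatocyte markers 1 was lower, *Hnf4a*, and 15 clock genes were called for 0. No marker in the table was at 0 in every liver. Their part in the values of *Hsd3b5* and of the lists was not tested.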

How the data were processed

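Reads of 3′ mRNA libraries were cleaned by the authors with BBDuk, mapped with STAR 2.5.3a to the GRCm38 genome and assigned to genes with Rsubread. The deposited values are these raw counts. The submitters' processing notes also name DESeq2 1.38.3. The annotation, the strand setting and the treatment of reads with several matches are not given in the sources used here. The table had 0 columns of other samples. Livers are separate animals, grouped by their labels.

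The filter of the study was kept (over 10 reads in 5 or more livers). Differences were tested on all 11 livers by edgeR 4.0.16 (quasi-likelihood, R 4.3.3), with TMM factors, group as the only term and Benjamini-Hochberg adjustment over 13334 genes (adjusted p below 0.05). Log2 CPM used a prior count of 2. Single values and relations between livers were tested by exact permutation in NumPy 2.4.6. The test was checked on counts simulated with a spread between livers set by the mean level of each gene. Genes that vary more than that were not represented in this check. Alternatives were DESeq2 1.42.0, limma-voom 3.58.1 with quality weights, other scalings and filters, and each liver left out in turn. Transcript ends were compared with BLAST 2.17.0+, and UTRs and gene positions came from GENCODE M21.

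The 10 genes and all lists were chosen with earlier results of these data known. Named genes are the 10, up to 4 genes per list and direction with the smallest p among those called, the 3 genes most like *Hsd3b5* and *Igf1*, and cell type markers. A gene selected by this rule is not reported here. *Onecut1*, *Jak2* and *Cyp4a12b* were named after their values were seen. At these depths a gene at 1 CPM has about as many reads as the filter asks for, so *Stat5a* and low values of *Cish* carry large counting error.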

Additional observations from a re-analysis of the deposited data

Results flagged for a closer look

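Of 74 groups of values examined, 3 (4.05%) had a liver far from the others by Dixon's ratio, the gap to the nearest liver over the range of the group, where chance at 1 in 20 gives 3.7. The *Mup* share of AAV-NC liver 7 was the highest of its group with a ratio of 0.804. The summed level of the male-biased genes in the same liver was the highest of its group with a ratio of 0.900; this list holds *Mup* genes, so both entries describe the same reads. *Src* in AAV-NC liver 8 was the lowest of its group with a ratio of 0.711 on log2 CPM.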

How the results depend on the processing

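No paired analysis was possible because the replicate numbers of the AAV-NC and AAV-TuD livers do not overlap. Over 21 alternatives, of which the removal of the 3 livers richest in *Mup* reads was chosen after seeing the data, all genes called were between 1071 and 1867 against 1543, and *Hsd3b5* stayed called. With library size alone 95.1% of called genes were higher against 62.6%, the median of all genes was 0.23, and *Ghr* turned to 0.0592 and *Igfals* to 0.0590. Genes of the axis called lower were 1 to 2 with each liver left out. The *Mup* difference was -6.86 to 0.24 points, turning to 0.24 without AAV-NC liver 7.

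Receptor to STAT genes called lower were 1 with upper-quartile factors, voom or without the 3 livers, 0 with library size alone and 1 to 3 with a liver left out, and those called higher were 1 with DESeq2 size factors in edgeR, the 50 most abundant genes left out of the scaling, no filter, the edgeR filter or voom and 1 to 3 with a liver left out. IGF genes called lower were 1 with upper-quartile factors, 0 with library size alone or without the 3 livers and 0 to 2 with a liver left out, and those called higher were 1 with DESeq2, no filter or voom, 3 with library size alone and 0 to 1 with a liver left out. Male-biased genes called lower were 12 without the 3 livers and 3 to 6 with a liver left out. That 12 follows a choice of livers by their *Mup* reads, which this list holds, so nothing is read from it. Male-biased genes called higher were 2 with library size alone or voom, 0 without the 3 livers and 0 to 2 with a liver left out. Female-biased genes called higher were 9 with library size alone and 2 to 8 with a liver left out. The causes were not tested.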
